A study of Mus musculus with 10 samples.

Results

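The basal layers of the main olfactory epithelium (MOE) hold the cells from which olfactory sensory neurons (OSNs) are made, and 9 genes that mark these cells were followed here. They were taken from the raw count table by symbol: Krt5, Krt14 and Trp63 for horizontal basal cells, Sox2 and Kit for basal and globose basal cells, Neurog1 and Neurod1 for neuronal precursors, and Mki67 and Top2a for dividing cells. These are 9 of 24421 genes in the table, and all 9 were among the 17197 genes with enough counts to be tested. RNA was extracted from whole MOE of mice at postnatal day 14, with the strain labelled C57BL/6. The study's methods name C57BL/6J zygotes for its deletions of a single enhancer, and the study describes its mouse lines in general as being of mixed background. The genotypes differed in the pair of enhancers of the Taar gene cluster, named TAAR enhancer 1 and 2. The 3 wild-type (WT) libraries carried them intact, the 3 het libraries came from mice heterozygous for the deletion of both (+/-), and the 4 homo libraries from mice homozygous for it (-/-). The deletion was made with CRISPR-Cas9, by targeting enhancer 1 in zygotes of mice homozygous or heterozygous for the enhancer 2 deletion. It was kept as a single mouse line, and the genotypes were littermates according to the study. The question put to these genes was whether the cells upstream of the OSNs changed when the expression of the trace amine-associated receptor (Taar) genes was lost.

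The olfactory epithelium renews its neurons throughout life. Horizontal basal cells lie flat on the basement membrane, are mostly quiescent, and act as a reserve that is recruited after injury. Globose basal cells above them divide actively and pass through a sequence of transcription factors, Neurog1 and Neurod1 among them, before they leave the cell cycle and become immature and then mature OSNs, which choose 1 olfactory receptor gene each. At postnatal day 14 the epithelium is still growing, so that dividing precursors are part of the normal tissue.

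Depth was similar in the genotypes, with 21423861 to 27712948 counts per library. The labels were checked on the Taar genes, which need the enhancers: the 14 olfactory Taar genes summed to 850 to 915 counts in WT, 738 to 862 in het and 2 to 5 in homo libraries. Markers of the tissue were present in every library, with 3572 to 4861 CPM (the count scaled to a common library total) of Omp, a marker of mature OSNs, and 2462 to 3075 CPM of Cyp2g1, an enzyme of the supporting (sustentacular) cells. The 9 genes had between 204 counts (Neurog1) and 2965 counts (Mki67) in a library. In whole tissue, fewer cells of a type and less RNA per cell cannot be told apart.

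None of the 9 basal cell and progenitor genes was called different between genotypes. The counts were fitted with edgeR's quasi-likelihood model over all 10 libraries, with Benjamini-Hochberg adjustment across the 17197 tested genes and an adjusted p under 0.05 counted as a change. Between homo and WT mice 0 of the 9 genes passed (0.0698% of all genes did), between het and WT mice 0 of 9 (0% of all genes), and between homo and het mice 0 of 9 (0.0756% of all genes, of which 0.00581% higher in homo mice). A further edgeR fit of the WT and het libraries alone took the replicate number as a block. It was added after same-numbered libraries of these genotypes were seen to deviate together. In it 3 genes were called between these genotypes and 0 were among the 9 (lowest adjusted p 0.743). DESeq2 also called 0 of the 9 genes in each comparison. Without adjustment, edgeR gave 1 of the 9 genes a p under 0.05 between homo and WT mice (Sox2; 2.41% of all genes), 1 between het and WT mice (Top2a; 1.92% of all genes) and 0 between homo and het mice (2.48% of all genes). In the test across the 3 genotypes it was 0 of 9 (1.98% of all genes). In the block of WT and het libraries alone 2 of the 9 genes had an unadjusted p under 0.05 (Sox2 and Top2a). The share of all genes was not counted for that fit, so this count cannot be compared with it. The differences were small, from -15.6% to 13% over the 27 values of 9 genes in 3 comparisons. The 95% confidence intervals of all 27 lay between -33.7% and 29.1%, so that a 2-fold change in any of the 9 genes lay outside its interval. The study describes OSNs that express Taar genes as a very small share of the whole MOE. A change confined to their precursors could therefore lie within these intervals and cannot be seen here.

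**Figure D1:**
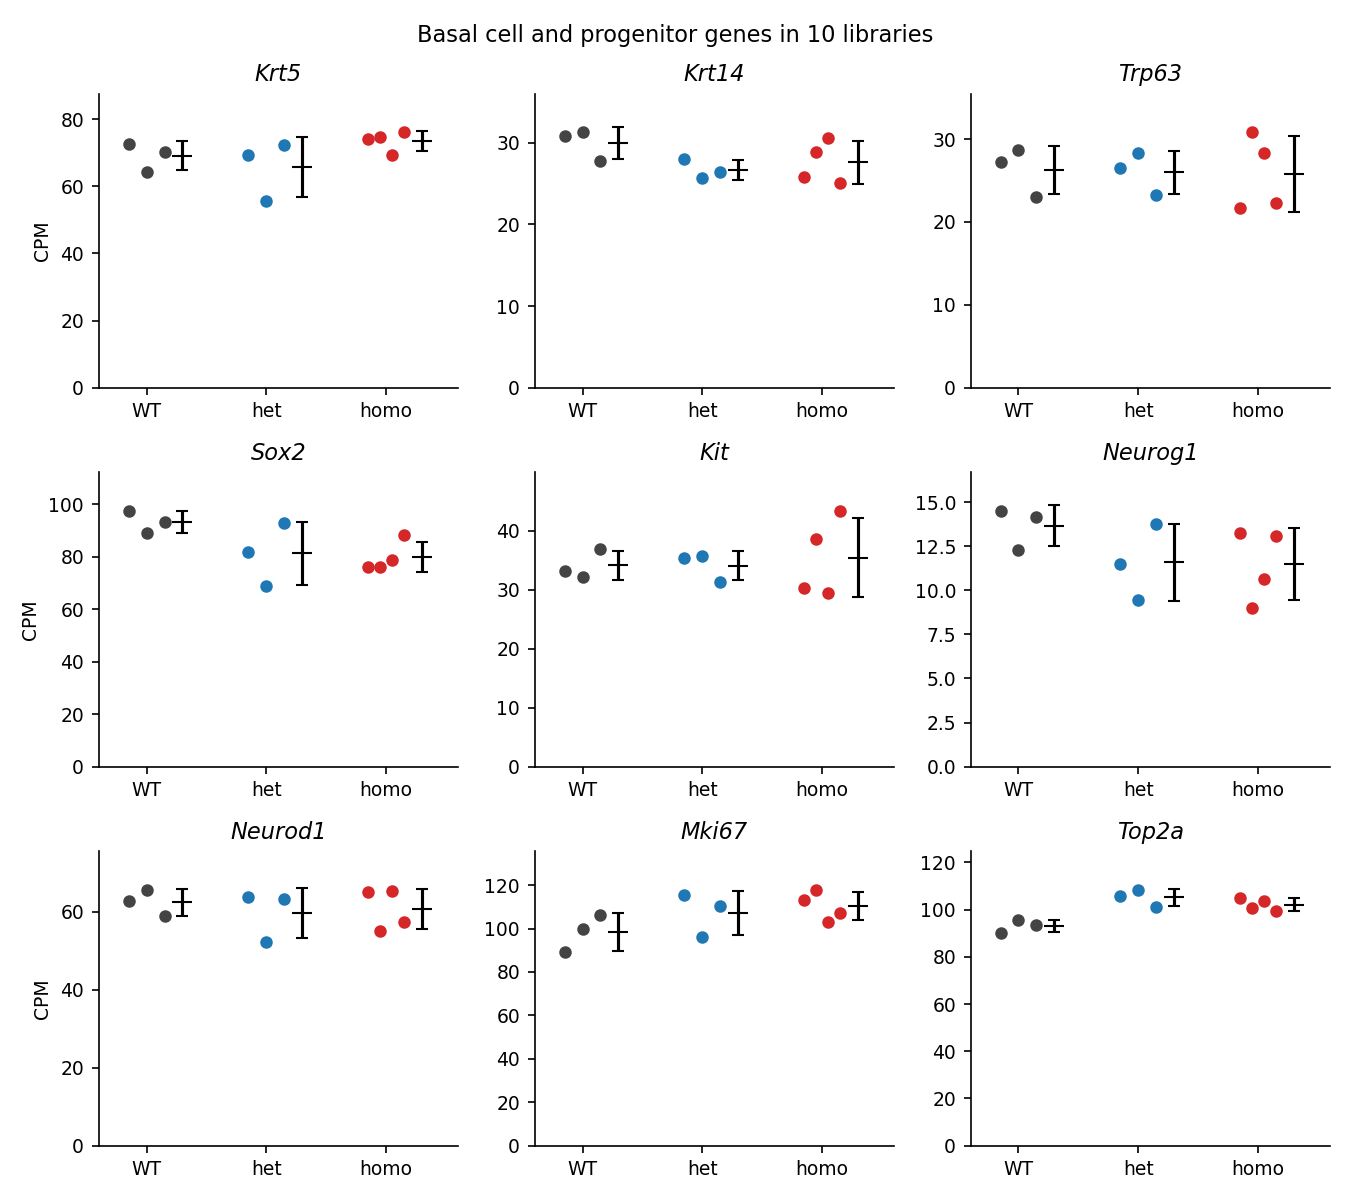
Level of each of the 9 genes in CPM (y axis, from 0) by genotype (x axis), with 1 point per library and the mean ± SD beside the points (n = 3 WT, 3 het and 4 homo). The genotypes overlap for most genes; Top2a lies at 90.2 to 95.5 CPM in WT and at 99.5 to 108 CPM in the other libraries, and Sox2 at 89.2 to 97.6 CPM in WT and 76.2 to 88.3 CPM in homo libraries.

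The horizontal basal cell genes came first in the lineage. Krt5, the type II keratin of basal cells, lies on chromosome 15 (101707070 to 101712898, mm10, minus strand). It measured 72.7, 64.3 and 70.3 CPM in the WT libraries, 69.4, 55.6 and 72.2 CPM in the het libraries, and 73.9, 74.6, 69.2 and 76.2 CPM in the homo libraries. The het library of replicate 2 (het-2) was the lowest, and the other 9 libraries lay within 64.3 to 76.2 CPM. Between homo and WT mice the log2 fold change was 0.094 (SE 0.094, edgeR adjusted p 1), and between het and WT mice it was -0.073 (SE 0.10, adjusted p 1). The difference between homo and het mice, 0.17 (SE 0.094, adjusted p 0.999), rested in part on het-2, and without that library it was 0.065.

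Krt14, the type I keratin that pairs with Krt5 in basal cells, lies on chromosome 11 (100203162 to 100207548, minus strand). It measured 30.9, 31.4 and 27.8 CPM in WT, 28.1, 25.7 and 26.4 CPM in het, and 25.9, 28.9, 30.6 and 25 CPM in homo libraries. The 3 groups overlapped. Each het library lay below the WT library of its number. The same order is given below for Sox2 and Neurog1, and Top2a had the reverse order. The share of either order over all genes was not counted, so no result is drawn from it. The log2 fold change of Krt14 was -0.12 (SE 0.10) between homo and WT mice and -0.17 (SE 0.11) between het and WT mice, both with an edgeR adjusted p of 1. Keratin genes share stretches of sequence, and how reads with several alignments were counted was not stated, so that Krt5 and Krt14 are uncertain to that extent.

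Trp63 encodes p63, the transcription factor that keeps horizontal basal cells in their resting, undifferentiated state. It lies on chromosome 16 (25683763 to 25892102, plus strand). It measured 27.2, 28.7 and 23 CPM in WT, 26.5, 28.3 and 23.2 CPM in het, and 21.7, 30.9, 28.3 and 22.3 CPM in homo libraries. The genotypes overlapped throughout, and the homo libraries held both the lowest and the highest value. The group means were 26.3 ± 2.91 (SD, n = 3), 26 ± 2.59 (SD, n = 3) and 25.8 ± 4.54 CPM (SD, n = 4), and the log2 fold change between homo and WT mice was -0.024 (SE 0.14, edgeR adjusted p 1).

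Sox2, a transcription factor of progenitors that the sustentacular cells also express, lies on chromosome 3 (34650405 to 34652461, 1 exon, plus strand). It measured 97.6, 89.2 and 93.5 CPM in WT, 81.8, 69.1 and 93.1 CPM in het, and 76.2, 76.3, 78.8 and 88.3 CPM in homo libraries. Every homo library lay below every WT library, while the het libraries overlapped both and each lay below the WT library of its number. The log2 fold change between homo and WT mice was -0.22 (SE 0.095), or -14.2% with a 95% confidence interval from -25.4% to -1.41%. The unadjusted p was 0.0328 and the edgeR adjusted p was 1, so that the difference did not pass. Over the alternatives the adjusted p ranged from 0.847 to 1. In het against WT mice Sox2 differed by a log2 fold change of -0.20 (SE 0.10, unadjusted p 0.0649, edgeR adjusted p 1). With the replicate block on these libraries alone it was -0.21 (unadjusted p 0.013, edgeR adjusted p 0.743), and without het-2, in the fit with no block, it was -0.10. The sustentacular markers beside it (Cyp2g1, Cyp1a2, Cyp2a5, Ermn and Notch2) summed to 8582 to 9670 CPM in WT and 8453 to 10390 CPM in homo libraries, and all 5 had log2 fold changes above 0, from 0.018 to 0.12 (edgeR adjusted p 1 in each). Their part in the Sox2 level was not tested. Sox2 lies within the long noncoding gene Sox2ot on the same strand, shares no exon base with it in the annotation, and Sox2ot itself was low, at 1.34 to 2.2 CPM.

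Kit, the receptor tyrosine kinase for stem cell factor and a marker of globose basal cells, lies on chromosome 5 (75574916 to 75656722, plus strand). It measured 33.3, 32.3 and 37 CPM in WT, 35.4, 35.7 and 31.3 CPM in het, and 30.3, 38.7, 29.5 and 43.4 CPM in homo libraries. The homo libraries held both the lowest and the highest value. Its log2 fold change came to 0.058 (SE 0.13) in homo against WT mice and -0.002 (SE 0.13) in het against WT mice, both with an edgeR adjusted p of 1. Mast cells and melanocytes also use Kit. The 5 mast cell markers (Cpa3, Mcpt4, Cma1, Tpsb2 and Fcer1a) summed to 0.648 to 1.16 CPM in WT, 0.589 to 0.921 CPM in het and 0.929 to 1.31 CPM in homo libraries, and 0 of the 5 passed the filter on low counts. Cpa3 was the highest on average, at 0 to 0.466 CPM. The 4 melanocyte markers summed to 0.607 to 1.42 CPM over all libraries, and Pmel alone of them was tested (log2 fold change 0.24 between homo and WT mice, SE 0.42, edgeR adjusted p 1).

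Neurog1, the proneural basic helix-loop-helix factor that commits precursors to the neuronal fate, was the lowest of the 9 genes in CPM. It lies on chromosome 13 (56250478 to 56252163, 1 exon, minus strand). It measured 14.5, 12.3 and 14.2 CPM in WT, 11.5, 9.46 and 13.8 CPM in het, and 13.3, 9.02, 10.6 and 13.1 CPM in homo libraries. The lowest values were in homo-2 and het-2, both groups reached into the WT range, and each het library lay below the WT library of its number. The log2 fold changes were -0.24 (SE 0.16) between homo and WT mice and -0.24 (SE 0.17) between het and WT mice, both with an edgeR adjusted p of 1. Both rested in part on single libraries: without homo-2 the former was -0.16, and without het-2 the latter was -0.12, while without het-3 the latter was -0.37. With the replicate block on WT and het libraries alone the latter was -0.25 (unadjusted p 0.0594, edgeR adjusted p 0.743). The interval between homo and WT mice ran from -32.8% to 6.05%. At 204 to 388 counts per library, counting alone gives an error of about 5.81%, against a spread of 15.4% between libraries within a genotype.

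Neurod1, which acts after Neurog1 in precursors about to become neurons, lies on chromosome 2 (79452521 to 79456751, minus strand). It measured 62.9, 65.6 and 58.9 CPM in WT, 63.8, 52.4 and 63.2 CPM in het, and 65.1, 55.2, 65.2 and 57.5 CPM in homo libraries. The groups overlapped, with a log2 fold change of -0.035 (SE 0.098) between homo and WT mice and -0.064 (SE 0.10) between het and WT mice (edgeR adjusted p 1 in both). Its annotated exons share 201 bases with Cerkl on the same strand, and Cerkl measured 3.55 to 7.11 CPM.

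Mki67 encodes Ki-67, a chromosome surface protein present in dividing cells and absent from resting ones. It lies on chromosome 7 (135689784 to 135716361, minus strand). It measured 89.3, 99.9 and 106 CPM in WT, 115, 95.9 and 110 CPM in het, and 113, 118, 103 and 107 CPM in homo libraries. WT-1 was the lowest library, and the homo range began within the WT range. Its log2 fold change came to 0.17 (SE 0.094) in homo against WT mice and 0.12 (SE 0.10) in het against WT mice, both with an edgeR adjusted p of 1.

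Top2a encodes the topoisomerase that untangles DNA before chromosomes separate. It lies on chromosome 11 (98992943 to 99024189, minus strand). It measured 90.2, 95.5 and 93.5 CPM in WT, 106, 108 and 101 CPM in het, and 105, 101, 104 and 99.5 CPM in homo libraries. All 7 het and homo libraries lay above all 3 WT libraries. The log2 fold change was 0.18 between het and WT mice (SE 0.083, unadjusted p 0.0481) and 0.14 between homo and WT mice (SE 0.077, unadjusted p 0.0882), with an edgeR adjusted p of 1 in both, so that neither passed. With the replicate block on WT and het libraries alone the former was again 0.18 (unadjusted p 0.0136, edgeR adjusted p 0.743). These comparisons share the WT libraries. Top2a had the smallest spread of the 9 genes within a genotype, 2.91% against a counting error of 2.03%.

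The promoters of the 2 proliferation genes are shown because both carry the short elements by which many genes of the late cell cycle are timed, the CCAAT box and the cell cycle homology element TTTGAA. The sequences are the 250 bases before the RefSeq start on GRCm38.p6 (the mm10 assembly), on the minus strand and written 5′ to 3′, at chr7:135716380-135716629 for Mki67 and chr11:99024190-99024439 for Top2a. Capitals mark CCAAT and TTTGAA on either strand, and in these windows they do not overlap each other.
Mki67: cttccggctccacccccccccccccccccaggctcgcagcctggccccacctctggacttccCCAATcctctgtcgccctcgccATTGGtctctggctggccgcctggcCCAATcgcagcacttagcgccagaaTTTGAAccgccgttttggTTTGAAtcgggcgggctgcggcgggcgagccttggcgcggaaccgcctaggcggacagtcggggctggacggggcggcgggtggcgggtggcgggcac
Top2a: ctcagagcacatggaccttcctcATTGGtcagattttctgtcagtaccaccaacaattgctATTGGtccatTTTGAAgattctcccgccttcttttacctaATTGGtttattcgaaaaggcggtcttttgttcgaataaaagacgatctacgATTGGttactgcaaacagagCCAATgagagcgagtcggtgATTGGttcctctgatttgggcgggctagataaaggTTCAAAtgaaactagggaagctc

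Mki67 held 3 CCAAT and 2 TTTGAA matches, and Top2a held 6 and 2. Among windows of the same length of 27025 genes, 37.5% held CCAAT and 18.3% held TTTGAA. Of the 9 genes, 8 matched the promoter table by symbol (all but Trp63). CCAAT was found in 4 of the 8 (Sox2, Neurog1, Mki67 and Top2a) and TTTGAA in 2 (Mki67 and Top2a). In a list of mitosis genes given further on, CCAAT was found in 9 of 11 promoters (81.8%) and TTTGAA in 4 of 11 (36.4%), and in the list of DNA replication genes in 7 of 9 (77.8%) and 1 of 9 (11.1%). A match is a match of letters only and was not tested as a site.

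Counted by overlap, 2 of the 9 genes had homo libraries all on 1 side of the WT libraries, Top2a above and Sox2 below, where 3.55% of all tested genes did (1.7% above and 1.85% below). Between het and WT mice it was 1 of 9 (Top2a above), where 5.22% of all genes did (2.94% above and 2.28% below), and between homo and het mice 0 of 9, where 3.93% did (2.04% above and 1.89% below).

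**Figure D2:**
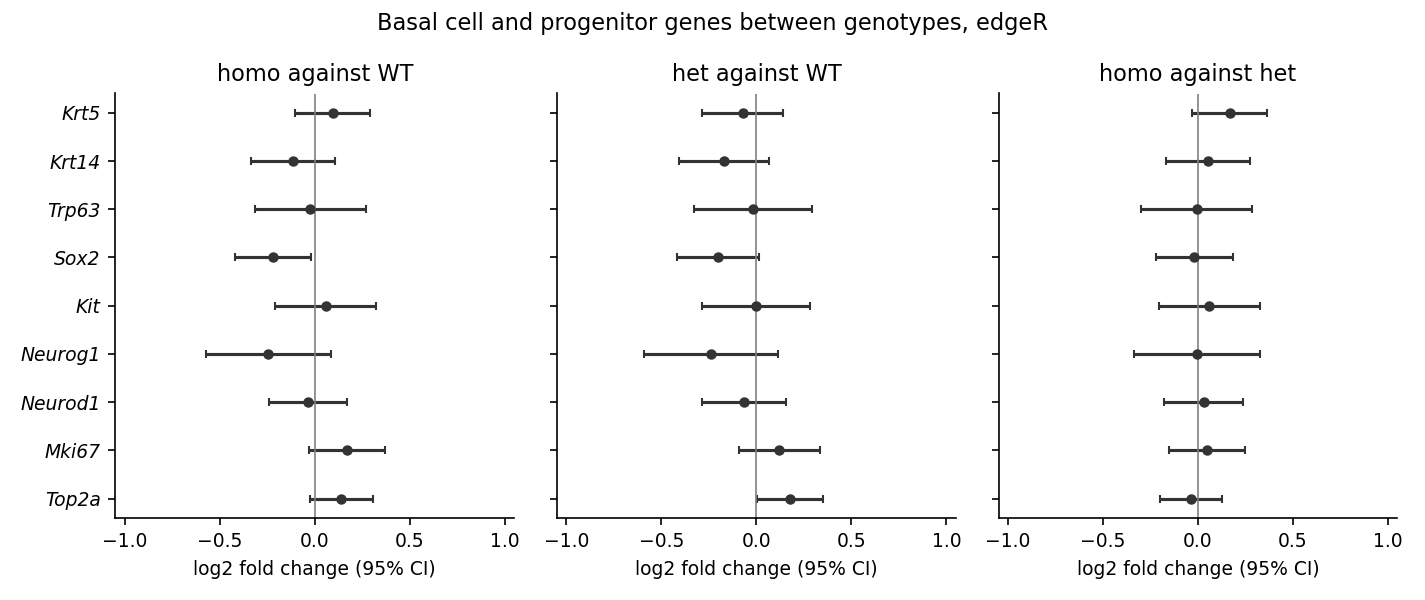
Log2 fold change (x axis) of each of the 9 genes in the 3 comparisons, with points for the edgeR estimate and bars for its 95% confidence interval. The intervals between homo and WT mice include 0 for all genes except Sox2, and those between het and WT mice for all except Top2a, before any adjustment for the number of genes.

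Other genes of the cell cycle were read from the same fit. Of 10 genes of DNA replication (Mcm2 to Mcm7, Pcna, Cdc6, Rrm2 and Tyms), 10 were tested and 0 were called higher or lower in any comparison. The median of their log2 fold changes was -0.0071 in homo and -0.012 in het mice, both against WT, where the medians of all tested genes were 0.00012 and -0.00088. Pcna, the sliding clamp of DNA polymerase, measured 91.8 ± 4.43 CPM in WT (SD, n = 3) and 82.8 ± 7.21 CPM in homo mice (SD, n = 4), and Mcm7, a subunit of the replicative helicase, 54 ± 1.49 and 56.9 ± 3.63 CPM (SD, n = 3 and n = 4). For both the adjusted p from edgeR was 1.

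The mitosis list held 14 genes (Ccna2, Ccnb1, Ccnb2, Cdk1, Aurka, Aurkb, Bub1, Cdc20, Birc5, Plk1, Kif11, Cenpf, Tpx2 and Nusap1), of which 14 were tested and again 0 were called. The median was -0.029 between homo and WT mice, with values from -0.13 to 0.20 and 5 of 14 above 0, and 0.011 in het against WT mice. Ccna2, a cyclin of S phase and G2, measured 48.5 ± 1.6 (SD, n = 3), 48.2 ± 2.99 (SD, n = 3) and 46.4 ± 2.4 CPM (SD, n = 4) in WT, het and homo mice. Cenpf, a kinetochore protein, measured 38.2 ± 2.39 (SD, n = 3), 40.6 ± 3.46 (SD, n = 3) and 39.6 ± 3.63 CPM (SD, n = 4). Tpx2, a spindle assembly factor, had the smallest p of this list across the 3 genotypes (0.266, edgeR adjusted p 1) and a log2 fold change of 0.20 (SE 0.12) between homo and WT mice.

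Dividing cells of the dissected tissue need not be epithelial, and markers of marrow, red cell and skeletal lineages were summed beside these results. Of the 6 marrow and neutrophil precursor markers (Mpo, Elane, Prtn3, Ngp, Camp and Ltf), 5 were tested and 0 called. Their sum was 328 to 406 CPM in WT, 233 to 740 CPM in het and 518 to 961 CPM in homo libraries, and nearly all of it was Ltf (223 to 954 CPM), which nasal glands also secrete. The defining granule genes Mpo and Elane stayed at 0 to 0.635 CPM, and Prtn3 at 3.05 to 6.69 CPM. Of the 5 erythroid markers 3 were tested and 0 called. They summed to 15.8 to 38 CPM in WT and 11.5 to 24.7 CPM in homo libraries, with log2 fold changes of -0.55 (Alas2, SE 0.50) and -0.92 (Klf1, SE 0.43), each with an edgeR adjusted p of 1, while Hbb-bs and Hba-a1 are listed at 0. The squamous epithelium markers Krt13, Krt4, Krt6a and Sprr3 summed to 0.841 to 4.42 CPM, far below Krt5. Of these, 3 were tested and 0 called. Krt6a had the smallest p across the genotypes (0.0336, edgeR adjusted p 1), at 0.0361 to 1.33 CPM. The part of these cells in the levels of Mki67, Top2a and Krt5 was not tested.

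Companion genes of the basal cells were compared in the same fit. Of 10 genes of horizontal basal cells and other basal epithelia (Krt15, Krt17, Itga6, Itgb4, Col17a1, Icam1, Cdh3, Perp, Sfn and Jag2), 10 were tested and 0 called in any comparison, with a median log2 fold change of 0.059 in homo and -0.013 in het mice, each against WT, and of 0.14 in homo against het mice. Itga6, the integrin subunit that anchors basal cells to the basement membrane, measured 64.7 ± 8.38 (SD, n = 3), 61.1 ± 5.86 (SD, n = 3) and 64 ± 6.27 CPM (SD, n = 4) in WT, het and homo mice. Jag2, a Notch ligand, measured 110 ± 11.4 (SD, n = 3), 110 ± 9.06 (SD, n = 3) and 109 ± 14 CPM (SD, n = 4). Icam1, an adhesion molecule of horizontal basal cells, had the smallest p of this list across the genotypes (0.0723, edgeR adjusted p 1) and ranged from 4.84 to 8.33 CPM. Its log2 fold change between homo and het mice was 0.41 (SE 0.18, unadjusted p 0.032, edgeR adjusted p 0.999). Without adjustment, edgeR gave 1 of the 10 genes a p under 0.05 between homo and WT mice (2.41% of all genes). It was 0 between het and WT mice (1.92%) and 2 between homo and het mice (2.48%).

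Of 10 genes of globose basal cells and neurogenesis (among them Hes6, Insm1, Dll1, Dll3, Cxcr4, Ezh2, Lgr5 and Pax6), 10 were tested and 0 called, with medians of -0.047 in homo and -0.054 in het mice, each against WT. Insm1, a zinc finger factor that drives the terminal divisions of neuronal precursors, had the smallest p of the list. It measured 158, 123 and 173 CPM in WT, 135, 100 and 155 CPM in het, and 127, 102, 116 and 118 CPM in homo libraries. The homo libraries lay in the lower part of the range but overlapped WT-2. The log2 fold change between homo and WT mice was -0.38 (SE 0.13, unadjusted p 0.0117, edgeR adjusted p 1).

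Further along the lineage, 5 immature neuron markers (Gap43, Gng8, Dcx, Stmn2 and Tubb3) and 5 mature neuron markers (Omp, Cnga2, Adcy3, Gnal and Ano2) were tested and 0 were called in any comparison. The immature markers had a median log2 fold change of -0.062 between homo and WT mice and the mature markers -0.009. Stmn2, a microtubule regulator of growing neurites, measured 510 ± 51.8 CPM in WT (SD, n = 3) and 475 ± 35.4 CPM in homo mice (SD, n = 4), and Tubb3, a neuronal tubulin, 456 ± 74.1 and 446 ± 29.6 CPM (SD, n = 3 and n = 4).

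**Figure D3:**
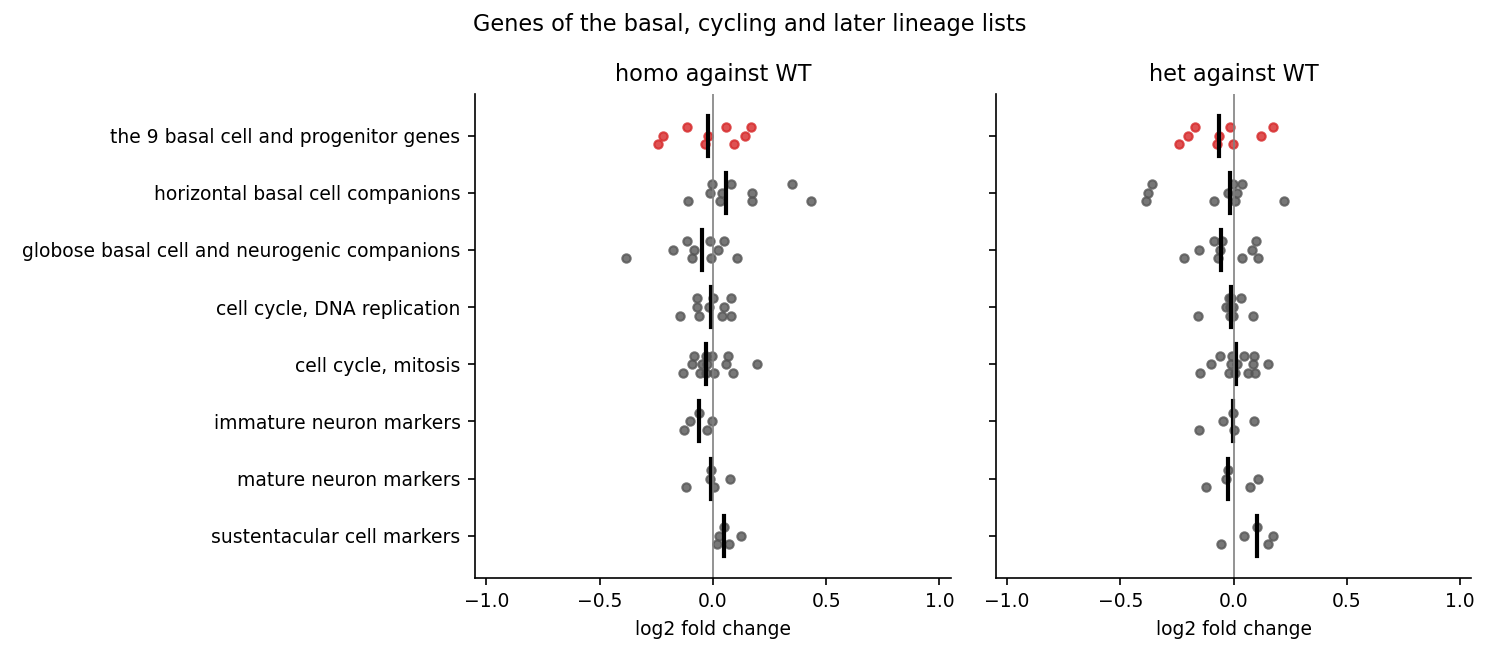
Log2 fold change (x axis) of every tested gene of the lineage lists (rows) between homo and WT mice and between het and WT mice, with 1 point per gene (vertical offsets only separate points) and a bar at the list's median. The medians lie between -0.064 and 0.10, and no gene of these lists has an adjusted p under 0.05.

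To compare the genes with each other, CPM were divided by the length of the annotated exons (GENCODE release M21), which gives CPM per kb. Sox2 was the most abundant on this scale at 41 CPM per kb on average (33.6 to 47.4 over the 10 libraries), followed by Krt5 at 31.8 (25.3 to 34.7), Neurod1 at 22.3 (19.2 to 24.1), Krt14 at 16 (14.2 to 17.8), Top2a at 11.1 (10 to 12), Mki67 at 10.5 (8.87 to 11.7), Neurog1 at 7.22 (5.35 to 8.6), Kit at 3.89 (3.31 to 4.87) and Trp63 at 3.1 (2.58 to 3.68). The order from Krt5 to Top2a and from Mki67 to Kit held without overlap between neighbours. The ranges of Sox2 and Krt5, of Top2a and Mki67, and of Kit and Trp63 overlapped, although Sox2 was above Krt5 in 10 of 10 libraries, Kit above Trp63 in 9 of 10 and Top2a above Mki67 in 8 of 10. Transcripts use only part of the annotated exons, so that genes with long or many alternative exons, such as Trp63, are placed low by this measure.

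**Figure D4:**
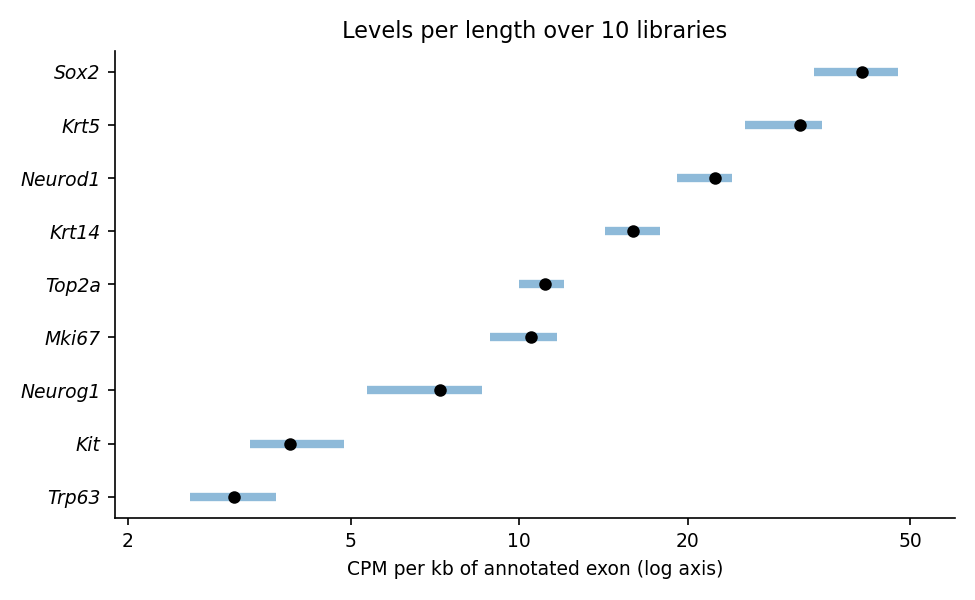
Level per length of the 9 genes in CPM per kb of annotated exon (log axis), with a dot at the mean of the 10 libraries and a bar from the lowest to the highest library. The means run from 3.1 (Trp63) to 41 (Sox2), and only 3 pairs of neighbours overlap.

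The 9 genes did not rise and fall as 1 block from library to library. Their summed level was 518 to 525 CPM in WT, 481 to 537 CPM in het and 519 to 532 CPM in homo libraries, but the library het-2 was the lowest for Krt5, Sox2 and Neurod1 and the highest for Top2a. The spread within a genotype ran from 2.91% (Top2a) to 15.4% (Neurog1), with Trp63 at 14% and Kit at 13.8%.

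Within a stage and across stages, 6 pairs of genes were compared over the 10 libraries on the log2(CPM + 0.1) scale, with permutation tests adjusted over the 6 pairs. No pair passed. Krt5 and Krt14, whose proteins pair in filaments, had r = -0.0062 (permutation p = 0.989, adjusted 0.989) and rho = -0.28 (permutation p = 0.426, adjusted 0.541), and r = -0.53 without the 2 libraries farthest from the Krt5 median. Mki67 and Top2a had r = 0.44 (permutation p = 0.2, adjusted 0.337) and rho = 0.32 (permutation p = 0.37, adjusted 0.541), and r = 0.53 without the 2 farthest libraries. With values centred on the mean of their genotype, r of this pair was -0.041. Mki67 and Krt5 had r = 0.46 (permutation p = 0.181, adjusted 0.337) and rho = 0.50 (permutation p = 0.143, adjusted 0.541), and r = 0.62 without the 2 farthest libraries. Without WT-1 r of this pair was 0.79 (exact permutation p = 0.00657, adjusted 0.0394). It was the only 1 of 78 recomputed relations to pass, and the adjustment over 6 pairs does not cover that choice. Neurog1 and Neurod1 had r = 0.52 (permutation p = 0.12, adjusted 0.337) and rho = 0.18 (permutation p = 0.631, adjusted 0.631), which turned to r = -0.46 without homo-2 and het-2. Krt5 with Trp63 (r = -0.43, rho = -0.44, permutation p = 0.225 and 0.204) and Mki67 with Neurog1 (r = -0.20, rho = -0.27, permutation p = 0.574 and 0.451) did not pass either, with adjusted p from 0.337 to 0.689, and had r = -0.24 and r = -0.33 without the 2 farthest libraries.

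The genes whose pattern over the 10 libraries was closest to that of a stage marker were found by the root mean square difference of centred log2(CPM + 0.1) over all tested genes. Closest to Krt5 were Lrrc56 (0.031), Fiz1 (0.039), Anapc2 (0.040), Pld3 (0.045) and Abcf1 (0.045). Among the closest to Neurod1 were Pgam1 (0.039), Gyg (0.042), Nop16 (0.047) and Dnajb11 (0.048), and closest to Mki67 were Tmem214 (0.054), Cnot4 (0.055), Pxylp1 (0.060), Nfia (0.067) and Irf3 (0.067). None of these genes is among the 9. Top2a stood at position 346 of 17196 genes by closeness to Mki67, Krt14 at 5499 by closeness to Krt5, and Neurog1 at 8399 by closeness to Neurod1. The levels of Krt5, Neurod1 and Mki67 themselves varied with an SD of 0.13, 0.11 and 0.13 on the log2 scale. A gene with no variation would differ from each of them by about that SD. Top2a differed from Mki67 by 0.11, where the median over all genes was 0.21, so its position need not mean a shared pattern.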

How the data were processed

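The data were RNA-seq of whole MOE in 10 libraries (3 WT, 3 het and 4 homo), grouped and numbered by their titles. Per the labels and the methods, the authors made strand-specific libraries from poly(A) RNA, trimmed reads with Trimmomatic 0.36, aligned them to mm10 with HISAT2 2.1.0 and counted them per gene with featureCounts of Subread 1.6.2. Of the deposited tables, the raw counts were used. The annotation, strand setting and treatment of multi-mapped reads were not given in the sources used here. The normalized table was not used.

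Counts were analysed with edgeR 4.0.16 in R 4.3.3 (filterByExpr on genotype, minimum count 10 and total 15; TMM scaling; robust quasi-likelihood F tests, two-sided, genotype as the only term). The genes tested held 99.97% of the counts, and 3137 rows had no count. The test was tried on simulated data first. The labels do not say whether each library was 1 mouse, while the study gives its n in littermates, in the same numbers as the libraries. The p-values measure the spread between libraries. No replicates were alike within sampling noise (chi-square divided by its degrees of freedom, 14.5 to 49.3). Same-numbered WT and het libraries deviated together (correlations 0.241 to 0.329) and were treated as paired in the added block. Pairs with homo libraries (-0.147 to 0.164) were not. Libraries of unlike number were not correlated, so these values have no baseline and cannot show that the numbers mark pairs.

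The 9 genes and all lists were chosen with earlier results of these data known. Named besides the 9 are, per list, the 2 genes of highest mean CPM and the gene of smallest p across genotypes, plus the 5 genes closest in pattern to Krt5, Neurod1 and Mki67. Some genes under this rule are not reported here. Alternatives were DESeq2 1.42.0, its size factors, library totals, other filters, a replicate block, fits of 2 genotypes and fits without each library.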

Additional observations from a re-analysis of the deposited data

Results flagged for a closer look

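Of 22 values checked in the 4 homo libraries (the 9 genes and 13 list sums), 1 library stood away from the other 3 by more than Dixon's 95% limit for its gap. Chance passes this limit in about 1 in 20 groups. The summed globose basal cell and neurogenic companions measured 431 CPM in homo-2, and the nearest homo library was at 488 CPM. Hes6, an inhibitor of Hes1 in neuronal precursors that is named here after its values were seen, measured 51.3 CPM there and 75.7 to 88.5 CPM in the other homo libraries, and Neurog1 was also lowest in homo-2, at 9.02 CPM. Het-2 had a like sum of 431 CPM. Groups of 3 libraries (WT, het) are too small for this limit.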

How the results depend on the processing

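Results were recomputed under the alternatives, including the removal of each of the 10 libraries in turn, which gave 614 values, of which 468 were fold changes of the 9 genes. None of the 468 had an adjusted p under 0.05 (lowest 0.743, edgeR, in the block of WT and het alone, chosen after the data were seen). Of these, 437 kept their direction and 31 reversed in sign. The cause was not tested.

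With the replicate block 19 genes were called in homo against WT mice, 24 in homo against het mice and 22 across the 3 genotypes, against 12, 13 and 12 without it. Same-numbered homo libraries were not taken as paired with WT or het libraries. For homo mice the block is therefore not a paired test, and its p-values and calls are not a sharper result. The block of WT and het alone, whose pairing has no baseline, called 3 genes against 0. None was 1 of the 9. Only the homo libraries had a replicate number 4, so the block on all libraries takes homo-4 out of the fold changes. With the block the log2 fold change of Trp63 turned to 0.0513 (homo against WT) and 0.0687 (homo against het), and that of Kit to -0.0489 and -0.0418. No call among the 9 genes changed with it, but with the block on all libraries the unadjusted p was under 0.05 for 3 of the 9 in homo against WT mice (Sox2 0.00822, Neurog1 0.0382 and Top2a 0.0419) and for 2 in het against WT mice (Sox2 0.0277 and Top2a 0.032), with adjusted p from 0.847 to 0.993 by edgeR. How many of all tested genes had such a p in this fit was not counted. Neither count can therefore be read as an enrichment among the 9. Leaving out each library gave 12 to 14 genes in each of these 3 tests and 0 between het and WT mice.

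In the fits without 1 library these ranges of log2 fold changes crossed 0. Against WT in homo mice they were Trp63 -0.135 to 0.0519, Kit -0.0396 to 0.136 and Neurod1 -0.081 to 0.00285. Against WT in het mice they were Trp63 -0.11 to 0.0666, Kit -0.0414 to 0.0664, Krt5 -0.135 to 0.0307 and Neurod1 -0.115 to 0.0187. Between homo and het mice they were Trp63 -0.118 to 0.0693, Kit -0.0382 to 0.138, Neurod1 -0.052 to 0.0756, Mki67 -0.0199 to 0.101, Sox2 -0.118 to 0.0807 and Neurog1 -0.124 to 0.132. Sox2 stayed between -0.26 and -0.192 (homo against WT) and Top2a between 0.15 and 0.212 (het against WT).

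Of the relations between genes, r of Krt5 with Krt14 turned to 0.0428 with TMM-scaled CPM and ranged from -0.664 to 0.19 without 1 library. Centred within genotype, r of Mki67 with Top2a was -0.0409 and of Mki67 with Neurog1 0.125, the latter ranging from -0.495 to 0.0881 without 1 library. Counting error was 1.98% to 5.81% of the level of the 9 genes, against a spread within genotypes of 2.91% to 15.4%.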

Other observations

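The skeletal markers of the dissected tissue were compared as well, and their source within it was not tested. Of 5 bone and cartilage markers (Col2a1, Acan, Ibsp, Bglap and Sp7), 5 were tested and 0 called in any comparison, with a median log2 fold change of 0.17 in homo and -0.15 in het mice, each against WT, and of 0.34 in homo against het mice. Their sum ranged from 286 to 586 CPM in WT, 317 to 486 CPM in het and 411 to 586 CPM in homo libraries. Ibsp, a bone matrix sialoprotein, measured 178 to 457 CPM over all libraries, and Bglap, osteocalcin, 35.5 to 53.3 CPM. Col2a1, the collagen of cartilage, lay at 14.3, 11.4 and 17.9 CPM in het and at 18.9, 18.6, 19.1 and 21.2 CPM in homo libraries, without overlap, at a log2 fold change of 0.43 (SE 0.15, unadjusted p 0.0104, edgeR adjusted p 0.999). Of all tested genes 3.93% did not overlap between homo and het mice. The WT libraries, at 13.6 to 19.1 CPM, overlapped both groups, and the log2 fold change between homo and WT mice was 0.23 (SE 0.15, edgeR unadjusted p 0.142).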
